A study of Mus musculus with 14 samples.

Results

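Amifostine was compared with its vehicle in the hypothalamus of mice, on 4 of the 14 microRNA (miRNA) arrays of the series. The members were the hypothalamus arrays labelled amifostine i.p. or phosphate-buffered saline (PBS) i.p. (i.p., into the abdomen), with an unirradiated (0 Gy) and an irradiated (8 Gy) array on each side. All animals were male C57BL/6 mice of 6 to 8 weeks, killed 12 h after gamma irradiation or sham treatment. Amifostine was given at 10 mg/kg, 0.5 h before irradiation. Each array carried RNA pooled from 3 mice, as the labels state, so no animal was measured alone. The other arrays were from bone marrow, and 4 of them, of the same drug, route and doses, are set beside the hypothalamus at the end. The RNA was hybridised to 1-colour Agilent mouse arrays.

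Amifostine is a prodrug that alkaline phosphatase at the cell surface turns into a free thiol, which scavenges radicals and gives protection to normal tissue in radiotherapy. The drug enters the brain poorly. A miRNA is a short RNA that guides Argonaute to messenger RNAs, and its bases 2 to 8, the seed, set most of the targets. The hypothalamus holds neurons, many of them neuroendocrine, with astrocytes, oligodendrocytes, microglia and vessels, and it borders the choroid plexus and ependyma of the third ventricle and, through the stalk, the pituitary. Whole tissue was measured, so fewer cells of a type and less RNA per cell cannot be told apart.

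The sequences that carry the results follow, from RefSeq (build GRCm38.p6), 5′ to 3′, with the seed in capitals. Of the miRNAs tested, 432 had a mature sequence there under the array's name. The first set is the miR-200 family, which is abundant in epithelia and in the anterior pituitary and restrains the Zeb repressors, and it is shown because its members had the widest differences. miR-200b, miR-200a and miR-429 come from 1 transcript on the minus strand of chromosome 4 and span 1791 bases (miR-200b-3p at chr4:156055685-156055706, miR-200a-3p at chr4:156054911-156054932, miR-429-3p at chr4:156053916-156053937). miR-200c-3p (chr6:124718324-124718346) and miR-141-3p (chr6:124717917-124717938) lie on the minus strand of chromosome 6.
miR-200b-3p: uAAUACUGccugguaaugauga
miR-200c-3p: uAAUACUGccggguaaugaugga
miR-429-3p: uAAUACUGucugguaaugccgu
miR-200a-3p: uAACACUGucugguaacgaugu
miR-141-3p: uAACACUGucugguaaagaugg
The first 3 of these share 1 seed and the last 2 another, and the seeds differ at 1 base. miR-200a-3p and miR-141-3p differ at 2 positions in all, and miR-200b-3p and miR-200c-3p at 3, counted from the 5′ end. Whether the array's probes for such close relatives share signal was not tested.

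The second set is the miR-183 cluster, known from sensory epithelia, from the pineal and from other neuroendocrine tissue. Its 3 members span 3771 bases on the minus strand of chromosome 6 (miR-183-5p at chr6:30169711-30169732, miR-96-5p at chr6:30169506-30169528, miR-182-5p at chr6:30165962-30165986).
miR-183-5p: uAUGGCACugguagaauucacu
miR-96-5p: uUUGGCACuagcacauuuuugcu
miR-182-5p: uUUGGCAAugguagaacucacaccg
Each has a seed of its own. The third set holds both arms of miR-877, a mirtron (a miRNA cut from a short intron by the spliceosome) on the minus strand of chromosome 17 (5p arm chr17:35960795-35960814, 3p arm chr17:35960731-35960752), shown because its arms differed in direction. With them stand miR-467f (chr11:69635419-69635439, minus strand), of the repeat-rich miR-466, miR-467 and miR-669 type, and miR-6236 (chr9:110281353-110281371, plus strand), a GC-rich miRNA that was above PBS at both doses.
miR-877-5p: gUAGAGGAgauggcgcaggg
miR-877-3p: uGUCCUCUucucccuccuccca
miR-467f: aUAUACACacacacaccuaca
miR-6236: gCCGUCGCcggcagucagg

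Some facts of the arrays bear on every value below. The 2 PBS arrays lay on 1 slide with bone marrow arrays, and the 2 amifostine arrays lay alone on another slide, scanned 14 days before the other 12 arrays. What amifostine did and what the slide did cannot be told apart in any value below. The control probe dmr_3 read 18194 and 18367 on the amifostine arrays against 3468 and 3602 on the PBS arrays. Another control probe, dmr_285, read 2104 and 3110 against 2698 and 2636. Detected miRNAs numbered 528 (PBS 0 Gy), 524 (amifostine 0 Gy), 478 (PBS 8 Gy) and 582 (amifostine 8 Gy), and no miRNA was saturated. The summed signal of all miRNAs was 496232, 353583, 366014 and 488966 intensity units in that order, so the pair with more signal was PBS at 0 Gy and amifostine at 8 Gy.

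The dissection label was checked against markers. Of the 26 neuronal miRNAs on the array, 22 were detected on all 4 arrays. miR-124-3p, the defining neuronal miRNA, read 8459 (PBS 0 Gy), 9170 (amifostine 0 Gy), 8884 (PBS 8 Gy) and 9105 (amifostine 8 Gy) intensity units before scaling, and all 4 lie close together. miR-338-3p and miR-219-5p, which promote oligodendrocyte maturation, were detected on every array. Of the 6 erythroid miRNAs on the array, 2 were detected on all 4 arrays, miR-451a and miR-3107-5p, and 4 on none, miR-144-3p among them.

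None of the tested miRNAs passed for amifostine over both doses (limma with dose in the model, adjusted p at most 0.05; 0% called, 1 miRNA with an unadjusted p under 0.05). Values here are log2 of the signal divided by the array's 75th percentile, and a difference is amifostine minus PBS. Of the tested miRNAs 501 (92.1%) had a mean difference within 0.5 of 0, 41% lay above 0 and 55% below. That split depended on scaling: 55.1% lay above and 41.5% below without scaling, 72.1% and 26.8% with the scanner software's totals, 28.7% and 66.7% when scaled over all miRNAs, and 23.5% and 74.8% after normexp background correction. Both amifostine arrays lay above both PBS arrays for 39 miRNAs (7.17%) and below for 35 (6.43%). A difference of at least 1 at both doses was reached by 3 miRNAs (0.551%), namely miR-3113-5p, miR-200a-3p and miR-200b-3p, and none had -1 or less at both (0%). Of these, miR-3113-5p was not detected on either PBS array and passed the detection filter through the amifostine arrays alone. Among the tested miRNAs, 14 were detected on both amifostine arrays and neither PBS array, and 1 on both PBS arrays and neither amifostine array. With 1 array per drug and dose, 1 residual degree of freedom was left per miRNA. It holds how far the amifostine difference departs between the doses, so each SE and p rests on that departure, moderated across miRNAs. An exact permutation test of 2 against 2 arrays cannot go below a two-sided p of 0.333. When the 22 miRNAs that sat at the signal floor on every array were left out, an alternative chosen after seeing the data, 3 of 522 passed (0.575%), all higher with amifostine. These were miR-200a-3p (limma adjusted p = 0.0108), miR-200b-3p (0.0108) and miR-429-3p (0.0361).

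Of all tested miRNAs, 3 clustered members of the miR-200 family had the widest mean differences from PBS on the scaled signal. miR-200a-3p read 24.01 and 10.9 intensity units on the PBS arrays at 0 and 8 Gy, and 204.7 and 34.3 on the amifostine arrays. The amifostine array at 0 Gy stood far above the other 3, and the groups did not overlap. After scaling this was 10.1-fold at 0 Gy and 2.44-fold at 8 Gy, a mean log2 difference of 2.31 ± 0.74 (SE, n = 2 arrays a side; limma adjusted p = 1, over the alternatives 5.35e-05 to 1).
miR-200b-3p read 23.4 and 11.8 on the PBS arrays and 204.1 and 34.5 on the amifostine arrays. Its folds were 10.4 at 0 Gy and 2.26 at 8 Gy, with a mean difference of 2.27 ± 0.79. miR-429-3p, from the same transcript, read 25.7 and 15.1 with PBS and 216 and 34.1 with amifostine, with folds of 9.97 and 1.73 and a mean of 2.05 ± 0.90. Among the processing settings compared, only normexp background correction turned the 8 Gy sign of miR-429-3p. Its log2 differences were then 1.77 at 0 Gy and -0.06 at 8 Gy. The order of the arrays was the same for the 3 clustered miRNAs. Both probes of each of the 3 read higher with amifostine at both doses. The drug by dose term could not be tested in the hypothalamus, since no residual degree of freedom is left for it. Hypothalamus fits without 1 array held no dose term, so they mix drug and dose. For miR-200a-3p they gave 0.85 without the amifostine array at 0 Gy and 3.81 without the amifostine array at 8 Gy.

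The chromosome 6 members were near the limit of detection. miR-200c-3p was not detected on either PBS array and read 45.6 and 8.38 with amifostine at 0 and 8 Gy, a mean difference of 1.34 ± 0.95 against PBS readings set to the floor (limma adjusted p = 1). Its 8 Gy value lay at the signal floor used in the test, as did that of miR-183-5p, so the tested difference of both was 0.00 at 8 Gy. No fold is given for a miRNA that was undetected on both arrays of a side. miR-141-3p was detected on the amifostine array at 0 Gy alone, at 20.4 units, and was not tested. On the passenger side miR-200a-5p and miR-200b-5p were detected on 1 array each, amifostine at 8 Gy.

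The miR-183 cluster had the same order of arrays. miR-96-5p read 9.82 and 6.19 with PBS, not detected on either, and 66.1 and 12.4 with amifostine (2.999 at 0 Gy and 0.38 at 8 Gy, mean 1.69 ± 0.93). After normexp background correction its differences were 0.90 at 0 Gy and -0.07 at 8 Gy. miR-183-5p read 4.40 and 2.16 with PBS, again not detected, and 47.8 and 8.71 with amifostine (mean 1.37 ± 0.98; limma adjusted p = 1 for both). miR-182-5p was detected only on the amifostine array at 0 Gy, at 28.6 units. Not every epithelial miRNA went with them: miR-203-3p, which is abundant in skin, read 15.5, 15.3, 13.5 and 15.9 (PBS 0 Gy, amifostine 0 Gy, PBS 8 Gy, amifostine 8 Gy), and miR-205-5p, of stratified epithelia, was detected on none. Of the 15 epithelial and pituitary miRNAs on the array, 4 were detected on each PBS array and 9 on each amifostine array. Of the 7 tested members, miR-96-5p, miR-183-5p and miR-200c-3p passed the detection filter through the amifostine arrays alone, so their place among those tested went with their being high there. The 4 detected on all arrays were miR-200a-3p, miR-200b-3p, miR-429-3p and miR-203-3p, the last with a mean difference of 0.05. Over all 15 members, with no filter, the median difference was 0.76, with 1.51 at 0 Gy and 0 at 8 Gy. None of the 7 passed the main test.

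Muscle miRNAs also stood highest on the amifostine array at 0 Gy, apart from miR-206-3p. miR-1a-3p, which represses non-muscle genes in heart and skeletal muscle, read 67.9 (PBS 0 Gy), 173.5 (amifostine 0 Gy), 70.9 (PBS 8 Gy) and 85.9 (amifostine 8 Gy). miR-133b-3p read 48.6, 128.5, 56.1 and 62.1, and miR-133a-3p read 24.8, 67.4, 29.01 and 31.3 in that order. In each case 1 array stood apart, amifostine at 0 Gy, and the other 3 lay close together. After scaling, the differences were 1.60, 1.65 and 1.69 at 0 Gy, and -0.10, -0.23 and -0.27 at 8 Gy. Without scaling the 8 Gy differences were 0.28, 0.15 and 0.11, so their sign turned. The mean differences of the scaled signal were 0.75 ± 0.62, 0.71 ± 0.68 and 0.71 ± 0.71 (SE, limma adjusted p = 1 for each). In the fit without the amifostine array at 0 Gy, which held no dose term, they were 0.07, 0.0080 and -0.020. miR-206-3p, of skeletal muscle, was not detected with PBS and read 8.99 and 9.57 with amifostine. miR-208a-3p, of heart, was detected on none. Over the 4 tested members the summed signal was 147 and 159 with PBS and 378 and 189 with amifostine, and 3 of the 8 muscle miRNAs on the array were detected nowhere. The part of other tissue in the miR-200, miR-183 and muscle values was not tested.

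**Figure D1:**
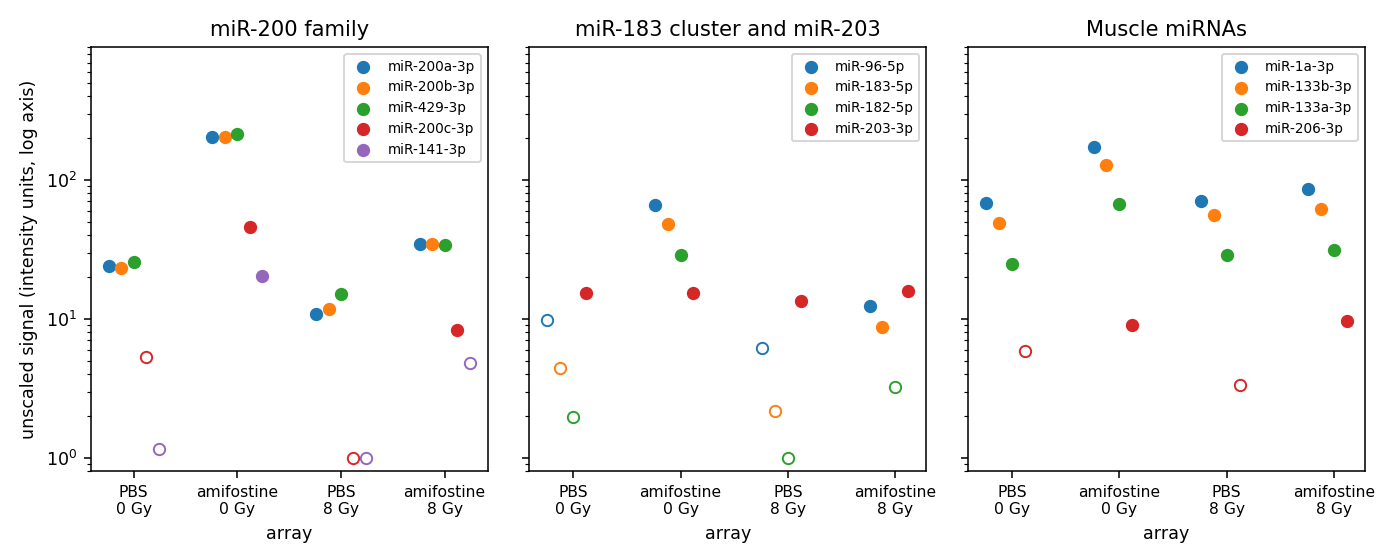
Unscaled signal (log axis, intensity units) of the miR-200 family, the miR-183 cluster with miR-203-3p, and the muscle miRNAs on each of the 4 hypothalamus arrays; filled points were detected, open points were not, and values under 1 are drawn at 1. The amifostine array at 0 Gy is highest for all but miR-203-3p and miR-206-3p, with miR-200a-3p at 204.7 against 10.9 to 34.3 on the other 3.

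Markers of other cells stood as follows on the same arrays. miR-204-5p, the most abundant miRNA of choroid plexus epithelium, read 1698, 1623, 1805 and 1723 (PBS 0 Gy, amifostine 0 Gy, PBS 8 Gy, amifostine 8 Gy). miR-449a-5p, of multiciliated ependyma and choroid plexus, read 9.68, 9.82, 5.51 and 7.20 and was not detected on PBS 8 Gy. miR-126-3p, of endothelium, read 1478, 1450, 1408 and 1445 in that order. The erythroid miR-451a read 1019, 946, 773 and 1075. miR-223-3p, of neutrophils, read 35.4, 32.4, 28.04 and 33.1, and miR-143-3p, of vascular smooth muscle, 114, 116, 104 and 126.1. None of these had an amifostine array at 0 Gy that stood apart. miR-375-3p, of pituitary and islet endocrine cells, read 13.8 and 8.99 with PBS and 17.7 and 15.3 with amifostine, a mean difference of 0.50 ± 0.18 (limma adjusted p = 1), and its groups did not overlap before scaling but did after.

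The smallest unadjusted p belonged to miR-3113-5p, which passed the detection filter through the amifostine arrays alone. It read 8.49 and 8.55 with PBS, not detected on either array, and 17.4 and 23.3 with amifostine, a mean difference of 1.18 ± 0.18 against undetected readings (limma adjusted p = 1). miR-6236 read 35.5 and 28.98 with PBS and 48.3 and 80.1 with amifostine, so both amifostine arrays were above, by 0.69 at 0 Gy and 1.09 at 8 Gy (mean 0.89 ± 0.22). miR-1957a read 10.5 and 16.8 with PBS and 31.6 and 33.3 with amifostine (mean 1.22 ± 0.46). miR-1931 read 44.8 and 67.0 with PBS and 118 and 126.1 with amifostine (mean 1.09 ± 0.42). Neither miR-1957a nor miR-1931 overlapped between the groups, and in each the 0 Gy difference was the wider, 1.84 and 1.64 against 0.61 and 0.53 at 8 Gy. 
The remaining miRNAs named on the higher side by their p were miR-1935 (0.94 ± 0.33), miR-1945 (0.66 ± 0.24), miR-598-5p (not detected with PBS, 0.51 ± 0.19), miR-6392-3p (0.52 ± 0.20) and miR-1901 (0.45 ± 0.18). All 12 on this side had an adjusted p of 1 in limma.

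On the lower side the differences were smaller. miR-3092-3p read 12.8 and 13.1 with PBS and 6.91 and 9.91 with amifostine, where it was not detected (mean -0.68 ± 0.18, limma adjusted p = 1). The mirtron arm miR-877-3p read 13.9 and 11.7 with PBS and 7.94 and 10.9 with amifostine, a mean of -0.52 ± 0.17. The other arm, miR-877-5p, read 19.3 and 14.4 with PBS and 20.8 and 34.7 with amifostine, a mean of 0.62 ± 0.25, so the arms of 1 hairpin lay on opposite sides of PBS, and neither passed (limma adjusted p = 1 for both). With the scanner software's totals miR-877-5p was at -1.90, on the same side as miR-877-3p, which was not detected on the amifostine array at 0 Gy. After normexp background correction the differences of miR-877-5p were 0.16 at 0 Gy and -0.04 at 8 Gy. Of the 4 probes for the 5p arm, 3 read higher with amifostine at 0 Gy and 4 at 8 Gy; of the 4 for the 3p arm, 0 and 1 did. miR-7b-5p, which is abundant in hypothalamic neurons, read 1988 and 1435 with PBS and 1425 and 1544 with amifostine, so its unscaled groups overlapped; after scaling its difference was -0.23 at 0 Gy and -0.27 at 8 Gy (mean -0.25 ± 0.17). miR-3968 read 1432 and 918 with PBS and 858 and 1007 with amifostine (mean -0.37 ± 0.19). let-7f-1-3p (-0.40 ± 0.17), miR-3475 (-0.36 ± 0.20), miR-489-3p (-0.35 ± 0.22), miR-5620-3p (-0.39 ± 0.26), miR-191-3p (-0.36 ± 0.25), miR-3085-3p (-0.29 ± 0.19), miR-122-5p of hepatocytes (-0.28 ± 0.18) and let-7k (-0.23 ± 0.17) complete the 12, each with an adjusted p of 1 in limma. Among these, miR-122-5p read 7.09 to 9.66 units on the 4 arrays.

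**Figure D2:**
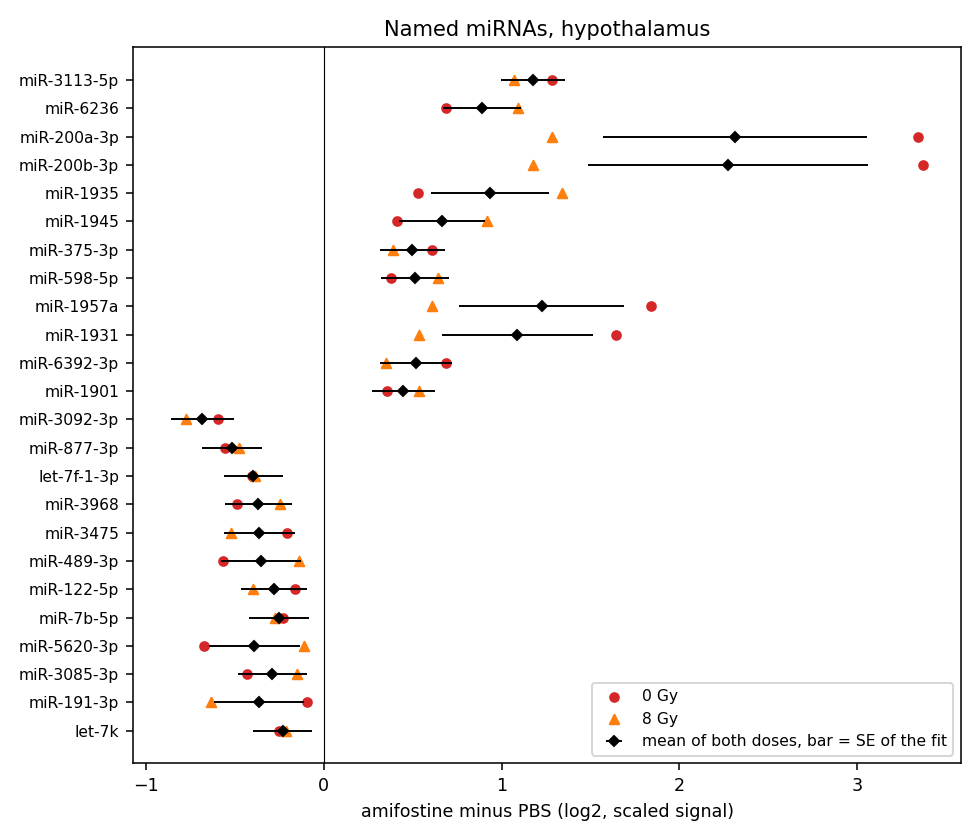
Amifostine minus PBS in log2 of the scaled signal for the 12 miRNAs with the smallest p on each side. They were taken from miRNAs detected on both arrays of at least 1 drug group. Circles are 0 Gy, triangles 8 Gy, and diamonds the mean with the standard error of the fit. miR-200a-3p and miR-200b-3p lie farthest from 0, at 2.31 and 2.27, and their 0 Gy points are 3.34 and 3.37.

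The differences at 0 and 8 Gy tended to oppose each other. Of the tested miRNAs, 406 had opposite signs at the doses and 19.7% the same sign. Across miRNAs, which are not independent replicates, the Spearman correlation of both differences was -0.58, and over the 272 brighter miRNAs it was -0.60. The differences share no array, but both PBS arrays share 1 slide and both amifostine arrays another. At 0 Gy 15 miRNAs (2.76%) lay at 1 or more and 40 (7.35%) at -1 or less; at 8 Gy 57 (10.5%) lay at 1 or more and 0 (0%) at -1 or less. These counts depended on processing. After normexp background correction they were 4 and 11 at 0 Gy, and 0 and 0 at 8 Gy. Without scaling they were 13 and 79 at 0 Gy, and 130 and 0 at 8 Gy. With the scanner software's totals they were 35 and 47 at 0 Gy, and 73 and 31 at 8 Gy. The SD of the log2 difference between arrays was smallest, 0.29, for PBS at 0 Gy and amifostine at 8 Gy, and 0.42 for amifostine at 0 Gy and PBS at 8 Gy. Within a dose it was 0.61 (0 Gy) and 0.56 (8 Gy). So each amifostine array was nearer to the PBS array of the other dose than to that of its own. Of the 471 miRNAs detected on all 4 arrays, 250 (53.1%) had higher unscaled signals on PBS 0 Gy and amifostine 8 Gy than on both other arrays, and 19 (4.03%) had lower ones.

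**Figure D3:**
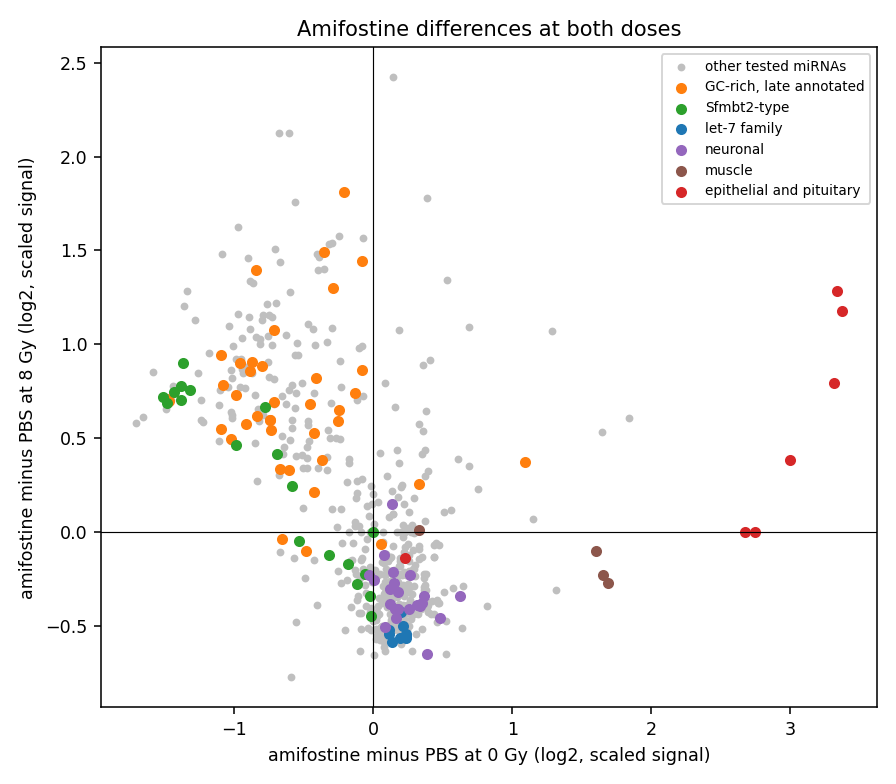
Each point is a tested miRNA, with amifostine minus PBS at 0 Gy on the horizontal axis and at 8 Gy on the vertical axis (log2 of scaled signal); colours mark miRNA groups. GC-rich and Sfmbt2-type miRNAs lie at the upper left, let-7 and neuronal miRNAs at the lower right, and the epithelial miRNAs reach 3.37 at 0 Gy.

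GC-rich miRNAs of late annotation followed that pattern. Of 39 tested, 36 were lower with amifostine at 0 Gy (median -0.67) and 36 higher at 8 Gy (median 0.68), and the mean over both doses had a median of -0.01. miR-5109 read 47570 (PBS 0 Gy), 18744 (amifostine 0 Gy), 25967 (PBS 8 Gy) and 49309 (amifostine 8 Gy). miR-3473b read 13441, 6760, 7083 and 13922 in that order. Both have the highest signals on PBS 0 Gy and amifostine 8 Gy. The signs of both dose medians held under the 13 settings compared, but their sizes did not: with the GC trend removed they were -0.48 and 0.21, and after normexp background correction -0.28 and 0.32. None of the 39 passed.

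Sfmbt2-type miRNAs come from repeat-rich transcripts, most of them in an intron of the imprinted Sfmbt2 gene, with seeds that recur among members. Of 48 listed, 40 were on the array and 19 were tested; 18 were lower with amifostine at 0 Gy (median -0.69), while 11 were higher and 7 lower at 8 Gy (median 0.42, which normexp background correction turned to -0.04). miR-467f, whose sequence is given above, read 668.9, 216, 293 and 619 (PBS 0 Gy, amifostine 0 Gy, PBS 8 Gy, amifostine 8 Gy). miR-466h-3p read 678.8, 218.7, 287 and 639, and miR-669c-3p 252, 74.4, 105 and 225. The 3 had the same order of arrays. The mean over both doses was below 0 for 18 of the 19, with a median of -0.23, and none passed.

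The mirtrons miR-1224-5p and miR-3102-5p were likewise highest on PBS 0 Gy and amifostine 8 Gy. miR-1224-5p read 7405, 3059, 4033 and 7375 in the same order of arrays. miR-3102-5p read 306, 185, 193 and 328.98. In the Dlk1-Dio3 cluster, the imprinted and brain-rich miRNA cluster of chromosome 12, miR-494-3p read 25387, 9962, 12946 and 28392. Other members were even, such as miR-127-3p at 4038, 3736, 4098 and 3857 and miR-434-3p at 3098, 3134, 3101 and 3131. Of its 51 tested members 40 had a mean below 0 (median -0.11), and none passed.

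Abundant brain miRNAs were nearly level before scaling. Over the 22 neuronal miRNAs, the median ratio to the PBS 0 Gy array was 0.947 on amifostine 0 Gy, 0.978 on PBS 8 Gy and 0.991 on amifostine 8 Gy. miR-9-5p, which controls neural progenitors, read 4683, 4466, 4181 and 4352 (PBS 0 Gy, amifostine 0 Gy, PBS 8 Gy, amifostine 8 Gy). miR-128-3p, which restrains neuronal excitability, read 6107, 6731, 7819 and 6461. miR-132-3p, induced by neuronal activity through CREB, read 2189, 2029, 2224 and 2094.
After scaling, 21 of the 22 neuronal miRNAs were higher with amifostine at 0 Gy (median 0.17) and 21 lower at 8 Gy (median -0.36). Without scaling these medians were -0.08 and 0.02, so both signs turned, and over all tested miRNAs the median moved to -0.18 at 0 Gy and 0.27 at 8 Gy. The let-7 family, which favours differentiation, had the same form: 9 of 9 were higher at 0 Gy (median 0.20) and 9 of 9 lower at 8 Gy (median -0.54) after scaling, against -0.05 and -0.17 without. let-7a-5p read 12795, 12277, 13994 and 12278 in the order above. None of the neuronal or let-7 miRNAs passed.

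**Figure D4:**
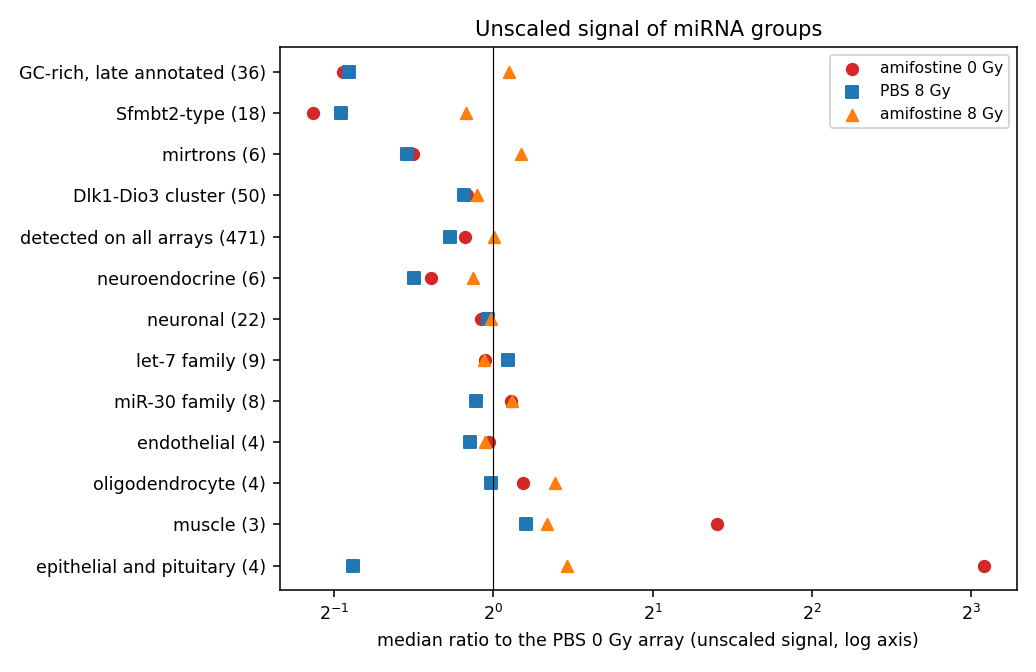
Median ratio of the unscaled signal to the PBS 0 Gy array (log axis) for groups of miRNAs detected on all 4 arrays, with the number of miRNAs in brackets. GC-rich and Sfmbt2-type groups lie near one another on amifostine 0 Gy and PBS 8 Gy (0.521 and 0.532 for the GC-rich group), neuronal miRNAs lie near 1 on all arrays, and the epithelial group reaches 8.46 on amifostine 0 Gy.

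Neuroendocrine and glial miRNAs gave small differences. miR-7a-5p read 5107.3 (PBS 0 Gy), 3824 (amifostine 0 Gy), 3529 (PBS 8 Gy) and 4117 (amifostine 8 Gy), so the unirradiated PBS array alone stood higher. Of the 6 neuroendocrine miRNAs, 4 had a mean below 0 (median -0.14) and none passed. miR-338-3p read 702.3, 807, 713 and 891 in the same order (mean 0.20 ± 0.24), and miR-219-5p read 319, 288, 278 and 445 (mean 0.20 ± 0.18). Of the 4 tested oligodendrocyte miRNAs 3 had a mean above 0 and 1 below (median 0.20), and none passed.

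Radiation and stress miRNAs did not pass either. miR-34a-5p, a direct p53 target, read 562 and 665 with PBS at 0 and 8 Gy, and 594 and 820 with amifostine. Its amifostine difference was 0.33 at 0 Gy and -0.07 at 8 Gy (mean 0.13 ± 0.22, limma adjusted p = 1), so its sign differed between the doses. Of the 8 tested p53-responsive miRNAs, 5 had a mean above 0 and 3 below (median 0.04). Among inflammatory miRNAs, miR-21a-5p read 627 and 608 with PBS and 732 and 753 with amifostine, and miR-146a-5p, a brake on NF-kB signalling, read 53.6 and 47.2 with PBS and 44.6 and 42.8 with amifostine. Before scaling the groups of each did not overlap, in opposite directions; after scaling those of miR-21a-5p overlapped, with a difference of 0.47 at 0 Gy and -0.07 at 8 Gy, and both amifostine arrays lay below both PBS arrays for miR-146a-5p, as for 6.43% of all tested miRNAs. miR-155-5p, induced in activated myeloid cells, read 9.66 and 6.60 with PBS, not detected on either array, and 8.61 and 16.5 with amifostine, so its unscaled signal at 0 Gy was not higher with amifostine. Of the 7 tested myeloid and microglial miRNAs, 3 had a mean above 0 and 4 below (median -0.01), and none passed. The other lists, among them the miR-29, miR-30, miR-181, miR-15 and miR-17 families and the choroid plexus, endothelial, stromal, liver, erythroid and activity-regulated miRNAs, had medians from -0.13 to 0.13, and none of their members passed.

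The same contrast was set beside bone marrow, in which the vehicle arrays shared a slide with the hypothalamus vehicle arrays and the amifostine arrays were on a further slide, so there too drug and slide coincide. The tissue by drug term was fitted on the 8 arrays: of 530 miRNAs none passed (0% called by limma, 3 with an unadjusted p under 0.05), and 2 of 521 did when those at the floor on every array were left out (0.384%). In bone marrow alone none passed (0%, 54 with an unadjusted p under 0.05), and 29 of 374 passed without those at the floor (7.75%).
miR-219-5p read 9.20 and 16.2 with PBS and 8.11 and 6.73 with amifostine in bone marrow, where it was detected on 3 of the 4 arrays. In hypothalamus it read 278 to 445 units. The difference was -0.49 at 0 Gy and -0.91 at 8 Gy in bone marrow against 0.10 and 0.30 in hypothalamus. The tissue by drug term, fitted on the 8 arrays scaled together, was 1.04 ± 0.33 (limma adjusted p = 1, over the alternatives 0.138 to 1). The differences given per dose are scaled within each tissue, so the terms here need not equal the gap between them. miR-877-5p differed by -0.12 and -0.40 in bone marrow against 0.36 and 0.89 in hypothalamus (1.02 ± 0.30, limma adjusted p = 1). miR-3099-3p differed by 0.93 and 1.03 in bone marrow against -0.12 and -0.22 in hypothalamus (-1.02 ± 0.33, limma adjusted p = 1). In these 3 the tissues lay on opposite sides of 0 at both doses, as they did for 11 (3.19%) of the miRNAs tested in both.

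The Sfmbt2-type miRNAs were divided in bone marrow. Of the 13 tested in both tissues, 7 lay above PBS at both doses there and 6 below at both, with means from -0.76 (miR-669n) to 1.48 (miR-669c-3p). The bone marrow medians were 0.38 at 0 Gy and 0.81 at 8 Gy, against -0.99 and 0.66 in hypothalamus. miR-466g read 9.91 and 4.004 with PBS and 26.1 and 16.6 with amifostine in bone marrow, and 102 and 44.2 with PBS and 34.6 and 96.7 with amifostine in hypothalamus. The tissues lay on opposite sides of 0 at 0 Gy and on the same side at 8 Gy, and the tissue by drug term was -1.63 ± 0.71 (limma adjusted p = 1). Related miRNAs gave similar terms, -1.74 for miR-669c-3p, -1.58 for miR-467f, -1.63 for miR-466i-3p and -1.54 for miR-466h-3p, none of which passed. For miR-466g the term was -0.79 without either hypothalamus array of 0 Gy and -2.06 to -1.20 without 1 bone marrow array, and did not pass. Leaving out the hypothalamus PBS array at 8 Gy gave -2.43, and leaving out the hypothalamus amifostine array at 8 Gy gave -2.44. These fits kept dose within each tissue. In both, the hypothalamus difference was that of the 0 Gy pair alone, 1 array a side, and the residual spread came from bone marrow alone. Of the miR-200 and miR-183 miRNAs, miR-200a-3p, miR-429-3p, miR-96-5p and miR-183-5p were detected on none of the 4 bone marrow arrays, miR-200b-3p on 1 and miR-200c-3p on all 4.

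**Figure D5:**
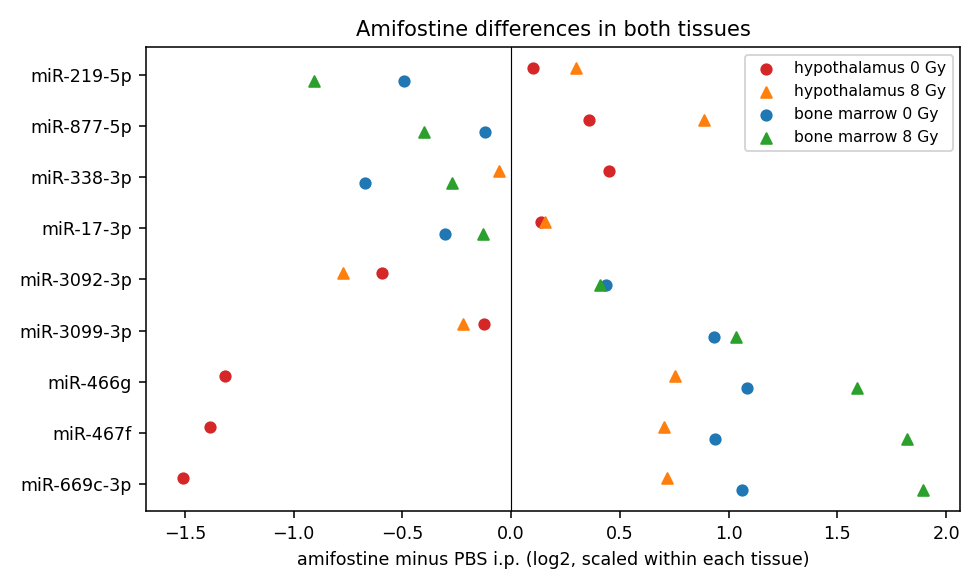
Amifostine minus PBS i.p. (log2 of the signal scaled within each tissue) for 9 miRNAs in hypothalamus and bone marrow; circles are 0 Gy and triangles 8 Gy. miR-219-5p and miR-877-5p lie right of 0 in hypothalamus and left in bone marrow, and the hypothalamus values of miR-466g, miR-467f and miR-669c-3p lie on both sides of 0.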

How the data were processed

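Per the file headers, the authors scanned the arrays and extracted each spot's intensity with Agilent Feature Extraction 10.7.1.1, which subtracts a fitted background. The value table deposited beside these files is in log2 units with an upper quartile of 3.43 on each array; its scaling is not given in the sources used here. Spots not marked as outliers were averaged per probe and then per miRNA. Each array was scaled to its 75th percentile, taken from the 471 miRNAs that all 4 arrays detected. Values below log2 -5.28 (a floor from the 5th percentile of detected signals, at which 8.92% of tested values lay) were raised to it and log2 was taken. A miRNA was tested where it was detected on at least 50% of the arrays. Tests were two-sided, by lmFit and eBayes of limma 3.58.1, with dose in the model and Benjamini-Hochberg adjustment at 0.05. The tissue comparison used tissue, drug, dose and their tissue interactions on 8 arrays. These were scaled together on the 277 miRNAs that all 8 detected, with a floor of -5.61. Bone marrow alone was scaled on 309 miRNAs, with a floor of -5.23. R was version 4.3.3. Scripts were tested on simulated data. The members, lists and tests were chosen with earlier results of these data known. Where fewer passed, the 12 miRNAs with the smallest p on each side are named for the hypothalamus. They were taken from miRNAs detected on every array of at least 1 drug group. For the tissue comparison some of its own 12 a side are named. List members are named by signal or difference. With 1 pool per drug and dose, the residual spread within a tissue is the disagreement of the amifostine difference between the doses. SEs and p-values rest on that, moderated across miRNAs, and do not measure the spread between pools of 1 condition. The number of arrays limits the precision. Alternatives covered background, scaling, floor, filters, spot summary, the value table, the model, probe GC and each array left out, and 1 was added after seeing the data. Within a tissue the fits without 1 array held no dose term, so they mix drug and dose.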

Additional observations from a re-analysis of the deposited data

Results flagged for a closer look

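For 7 named miRNAs the amifostine difference lay on 1 side of 0 at both doses in hypothalamus and on the other side at both doses in bone marrow. The fitted differences between tissues, hypothalamus minus bone marrow with the arrays of both scaled together, were 1.04 for miR-219-5p, 1.02 for miR-877-5p, 0.50 for miR-17-3p, -0.31 for miR-3085-3p, -0.55 for miR-5620-3p, -0.87 for miR-3092-3p and -1.02 for miR-3099-3p. None passed the limma test of that difference (adjusted p = 1 for each), and in both tissues drug and slide cannot be told apart.

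Within hypothalamus 406 tested miRNAs had opposite amifostine differences at 0 and 8 Gy; this difference between doses was not tested, since each dose has 1 array a side.

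Signal in probes that no comparison uses also differed between the drug groups. The control probe dmr_3 was 5.17-fold brighter on the amifostine than on the PBS hypothalamus arrays, and dmr_6 was 4.40-fold brighter. On the 12 arrays other than the amifostine hypothalamus pair, dmr_3 ranged from 2734 to 4385 and dmr_6 from 2401 to 3861. The part of the slide in the amifostine differences was not tested.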

How the results depend on the processing

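The count of 0 for amifostine in hypothalamus became 9 with the authors' value table, 3 with the GC trend removed and 3 with miRNAs at the floor everywhere left out, all higher; it was 0 under the other alternatives and without any 1 array. At a fold of 1.5, 7 miRNAs differed at both doses, 6 higher and 1 lower. The count of 0 for the tissue by drug term became 2 with the floor filter, and ranged from 0 to 31 without 1 array (31 without hypothalamus PBS 8 Gy, 15 without hypothalamus amifostine 8 Gy). The count of 0 in bone marrow became 9 (normexp), 5 (scaled over all miRNAs), 28 (offset), 16 (detected on all arrays), 2 (scanner totals), 13 (value table), 44 (intensity trend), 7 (GC trend removed) and 29 (floor filter), and was 0 without any 1 array. With scanner totals the sign turned for miR-375-3p (-0.64), miR-1957a (-0.036), miR-489-3p (0.025), miR-122-5p (0.38), let-7k (0.0085), miR-133a-3p (-2.37) and miR-877-5p (-1.90, and -1.64 for its tissue difference). Within a tissue the fits without 1 array held no dose term, so their values mix drug and dose and are not drug differences at matched dose. In them miR-133a-3p was -0.020 without amifostine 0 Gy. There miR-34a-5p ranged from -0.079 (without PBS 0 Gy) to 0.470 (without PBS 8 Gy). The causes were not tested. Of the single-miRNA values, 775 kept sign and side of the threshold, 19 came to pass it and 10 reversed. The share of miRNAs below 0 was 55% in the main scaling, 41.5% without scaling and 26.8% with scanner totals. A slide block was not run, because drug and slide coincide. Dose matches the arrays in the model, and 0 miRNAs passed in hypothalamus without that term too. Beyond this match by dose no pairing was possible, because no number in the labels ties a PBS pool to an amifostine pool.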
